A study of Mus musculus with 6 samples.

Results

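The mitochondrial ribosomal protein genes were examined in sorted mouse retinal cells that had received Sox11 by virus or a control virus. Members were the genes whose symbol starts with Mrpl or Mrps followed by a number, without pseudogenes. They numbered 69 of the 15450 named genes of the deposited table, on 105 of its 26691 transcript rows. Subunit membership was taken from the standard assignment of these proteins: 47 members belong to the large subunit and 21 to the small one. Mrps30 and Mrps18a carry small-subunit names but sit in the large subunit, and were counted there. Mrps36, now known as a component of the 2-oxoglutarate dehydrogenase complex, was assigned to neither.

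Both groups were mice of about 3 to 4 weeks of age at the start whose strain the labels do not state. The AAV-Sox11 group received an adeno-associated virus (AAV) carrying Sox11, a transcription factor of developing neurons, in the eye. The AAV-Control group received the same kind of virus carrying PLAP (placental alkaline phosphatase, a marker cargo). The promoter that drives the cargo and the serotype of the virus are not stated in the labels. In both groups the virus acted for 2 weeks, and the optic nerve had been crushed 3 days before the retinas were taken. Cells were sorted for Thy1, a surface protein of retinal ganglion cells, and for viability. Each library pooled 3 retinas from 3 animals, and each group had 3 libraries, lettered A, B and C, with the AAV-Sox11 and AAV-Control libraries of a letter prepared on the same day. The comparison asks how transcripts of these cells differ after Sox11 is supplied.

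Mitochondrial ribosomes translate the few proteins encoded in mitochondrial DNA, all of them subunits of the respiratory chain and ATP synthase. Their ribosomal RNAs come from mitochondrial DNA, while every protein is encoded in the nucleus, made in the cytosol and imported. Some of the proteins have bacterial counterparts and others exist only in mitochondrial ribosomes. Retinal ganglion cells have long, partly unmyelinated axons rich in mitochondria, and inherited defects of mitochondrial function are a known cause of optic neuropathy.

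Sox11 itself, the virus-delivered gene, had normalised values of 179, 234 and 284 in the AAV-Sox11 libraries A, B and C, against 131, 111 and 100.3 in the AAV-Control libraries. All AAV-Sox11 values lay above all control values, with a log2 fold change of 1.0 ± 0.20 (SE, limma adjusted p = 0.0504). Library totals of the deposited whole numbers were 10747985 to 11546892. A component of the spread between libraries, weighted mostly on AAV-Sox11 B, is missing from these numbers, and its effect on the tests was not measured beyond the fits given here. The sorted cells also carried transcripts of cells other than ganglion cells. The summed values of 10 ganglion cell markers, of 12 listed, were 8966 to 11767 with AAV-Sox11 and 7167 to 10478 in controls. Thy1, Nefl and Slc17a6 made up most of that sum, and 8 of the 10 markers were positive, with a median log2 fold change of 0.679. Of the 10, 4 (40.0%) lay above controls in every AAV-Sox11 library, against 16.2% of all genes. These were Stmn2 (1.04, limma adjusted p = 0.0447), Pou4f2 (1.47, limma adjusted p = 0.0669), Slc17a6 (0.99, limma adjusted p = 0.0802) and Nefh (0.77, limma adjusted p = 0.0569). The 2 negative markers were Nefl (-0.33) and Nefm (-0.39), and both overlapped between the groups. The summed values of all 8 rod markers were 23600 to 43214 with AAV-Sox11 and 37813 to 59859 in controls. Those of all 7 bipolar cell markers were 6234 to 7224 and, in controls, 7452 to 10503, without overlap. Prkca, which overlapped, made up most of the bipolar sum, with a mean of 5579.7 with AAV-Sox11 and 5844 in controls. All 7 bipolar markers were negative, and only Otx2 (-0.86) lay below controls in every AAV-Sox11 library. Amacrine markers (6 of 6) summed to 10708 to 13112 with AAV-Sox11 and 9385 to 13181 in controls, most of it Gad2. Of the 6, 4 were positive, and Tfap2a (0.52, limma adjusted p = 0.282) lay above controls in every AAV-Sox11 library. Slc6a9 lay below controls in every AAV-Sox11 library (-0.93, limma adjusted p = 0.0481). Muller glia markers (5 of 6) summed to 43245 to 51211 with AAV-Sox11 and 32254 to 54801 in controls. Dkk3 made up most of this sum, with a mean of 39201 with AAV-Sox11 and 37422 in controls. Of these 5, 3 were positive, from Slc1a3 (-0.42) to Apoe (0.60), and all overlapped between the groups. Cone markers (5 of 5) summed to 538 to 792 with AAV-Sox11 and 676 to 2567 in controls. All 5 were negative (median -0.844), and each overlapped between the groups. Microglia and macrophage markers (4 of 6) summed to 1998 to 2857 with AAV-Sox11 and 2205 to 5529.8 in controls. All 4 were negative (median -0.551), and only Tmem119 (-0.82) lay below controls in every AAV-Sox11 library. In bulk samples such as these, fewer cells of a type and less RNA per cell cannot be told apart, and the part of cell make-up in the results on the members was not tested. A sex index (mean log2 of 4 Y-linked genes minus log2 of Xist) was -8.446 to -6.865 in AAV-Sox11 pools and -6.816 to -5.262 in control pools. A lower index means relatively more female RNA, while the labels describe the groups as about balanced for sex.

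Promoters of 4 members are shown for what they share and do not share. The promoters are examples from the 14 members above, and the 7 below, the controls in every AAV-Sox11 library that had one. Each is the stretch of 250 bases before the RefSeq start, on build GRCm38.p6, and all are read 5′ to 3′ on the strand of the gene. Capitals mark a match to the core motif of NRF1 (GCGCATGC), ETS factors such as GABPA (CCGGAAGT), YY1 (AAGATGGC) or SP1 (GGGCGGGG), searched on both strands. These factors are known regulators of nuclear genes for mitochondrial proteins. Mrpl34 (chr8:71464676-71464925, plus strand) had the highest log2 fold change of all members, and Mrpl22 (chr11:58171414-58171663, plus strand) was above controls in every AAV-Sox11 library. Mrpl17 (chr7:105811088-105811337, minus strand) and Mrps14 (chr1:160194965-160195214, plus strand) were below controls in every AAV-Sox11 library.
Mrpl34: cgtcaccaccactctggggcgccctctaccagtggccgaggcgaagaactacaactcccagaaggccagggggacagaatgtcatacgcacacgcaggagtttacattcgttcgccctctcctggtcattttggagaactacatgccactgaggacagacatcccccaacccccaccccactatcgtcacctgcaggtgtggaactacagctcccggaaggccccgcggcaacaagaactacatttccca
Mrpl22: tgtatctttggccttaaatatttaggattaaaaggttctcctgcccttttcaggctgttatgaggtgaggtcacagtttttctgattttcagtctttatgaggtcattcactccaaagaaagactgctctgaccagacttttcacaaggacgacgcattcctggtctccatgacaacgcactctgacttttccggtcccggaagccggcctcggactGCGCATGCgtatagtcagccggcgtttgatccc
Mrpl17: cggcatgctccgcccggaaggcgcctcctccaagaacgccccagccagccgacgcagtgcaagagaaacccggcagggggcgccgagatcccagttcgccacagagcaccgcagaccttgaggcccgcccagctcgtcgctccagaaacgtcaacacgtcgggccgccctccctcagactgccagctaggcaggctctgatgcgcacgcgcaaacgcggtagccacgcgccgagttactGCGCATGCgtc
Mrps14: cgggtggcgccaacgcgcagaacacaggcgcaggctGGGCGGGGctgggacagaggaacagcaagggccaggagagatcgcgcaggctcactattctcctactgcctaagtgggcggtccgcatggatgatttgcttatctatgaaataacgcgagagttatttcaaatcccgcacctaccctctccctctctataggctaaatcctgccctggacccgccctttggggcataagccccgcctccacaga
Mrpl34 held none of the 4 motifs in this stretch. Mrpl22 and Mrpl17, which lay on opposite sides of the controls, both held the NRF1 core near the start, first base at -33 in Mrpl22 and -11 in Mrpl17. Each was the only holder of the NRF1 core on its side, 1 of the 14 above and 1 of the 7 below. Mrps14 held the SP1 core, first base at -214.

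Across the module, 62 members had a promoter in the RefSeq table, counted over 250 bases before to 50 bases after the start. The NRF1 core stood in 7 of them (11.3%), against 5.71% of 10069 genes tested here with a promoter in the table and 3.05% of all 27025 genes in it. The ETS core stood in 10 (16.1%), against 8.17% of tested genes and 4.31% of all genes. The YY1 core also stood in 10 (16.1%), against 4.99% of tested and 3.19% of all genes. The SP1 core stood in 14 (22.6%), against 35.2% of tested and 19.6% of all genes. Of the 14 members with a promoter that were above controls in every AAV-Sox11 library, 3 held the ETS core, 3 the YY1 core, 3 the SP1 core and 1 the NRF1 core. Of the 7 that were below, none held the ETS core, 1 held the YY1 core, 3 the SP1 core and 1 the NRF1 core. The motifs were thus found on both sides, apart from ETS, whose absence among 7 promoters is a description only.

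Taken over the module, differences between AAV-Sox11 and AAV-Control were small and went both ways. None of the 69 members passed the test at an adjusted p of 0.05, neither higher nor lower (limma with Benjamini-Hochberg adjustment over all 15450 genes). Among all genes, 0.796% passed as higher with AAV-Sox11 and 1.52% as lower. At an unadjusted p under 0.05, 10 members were higher and 4 lower, where 12.6% of all genes were higher and 11.8% lower. Log2 fold changes, computed on log2(value + 1), ran from -0.64 for Mrps17 to 0.57 for Mrpl34. The median of the members was 0.084 and that of all genes 0.032, and 45 members were positive and 24 negative. On this scale only Mrps17 differed by more than 1.5-fold, and without AAV-Sox11 A its log2 fold change was -0.33. The plot of all members by fold change gives each value with its standard error.

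**Figure D1:**
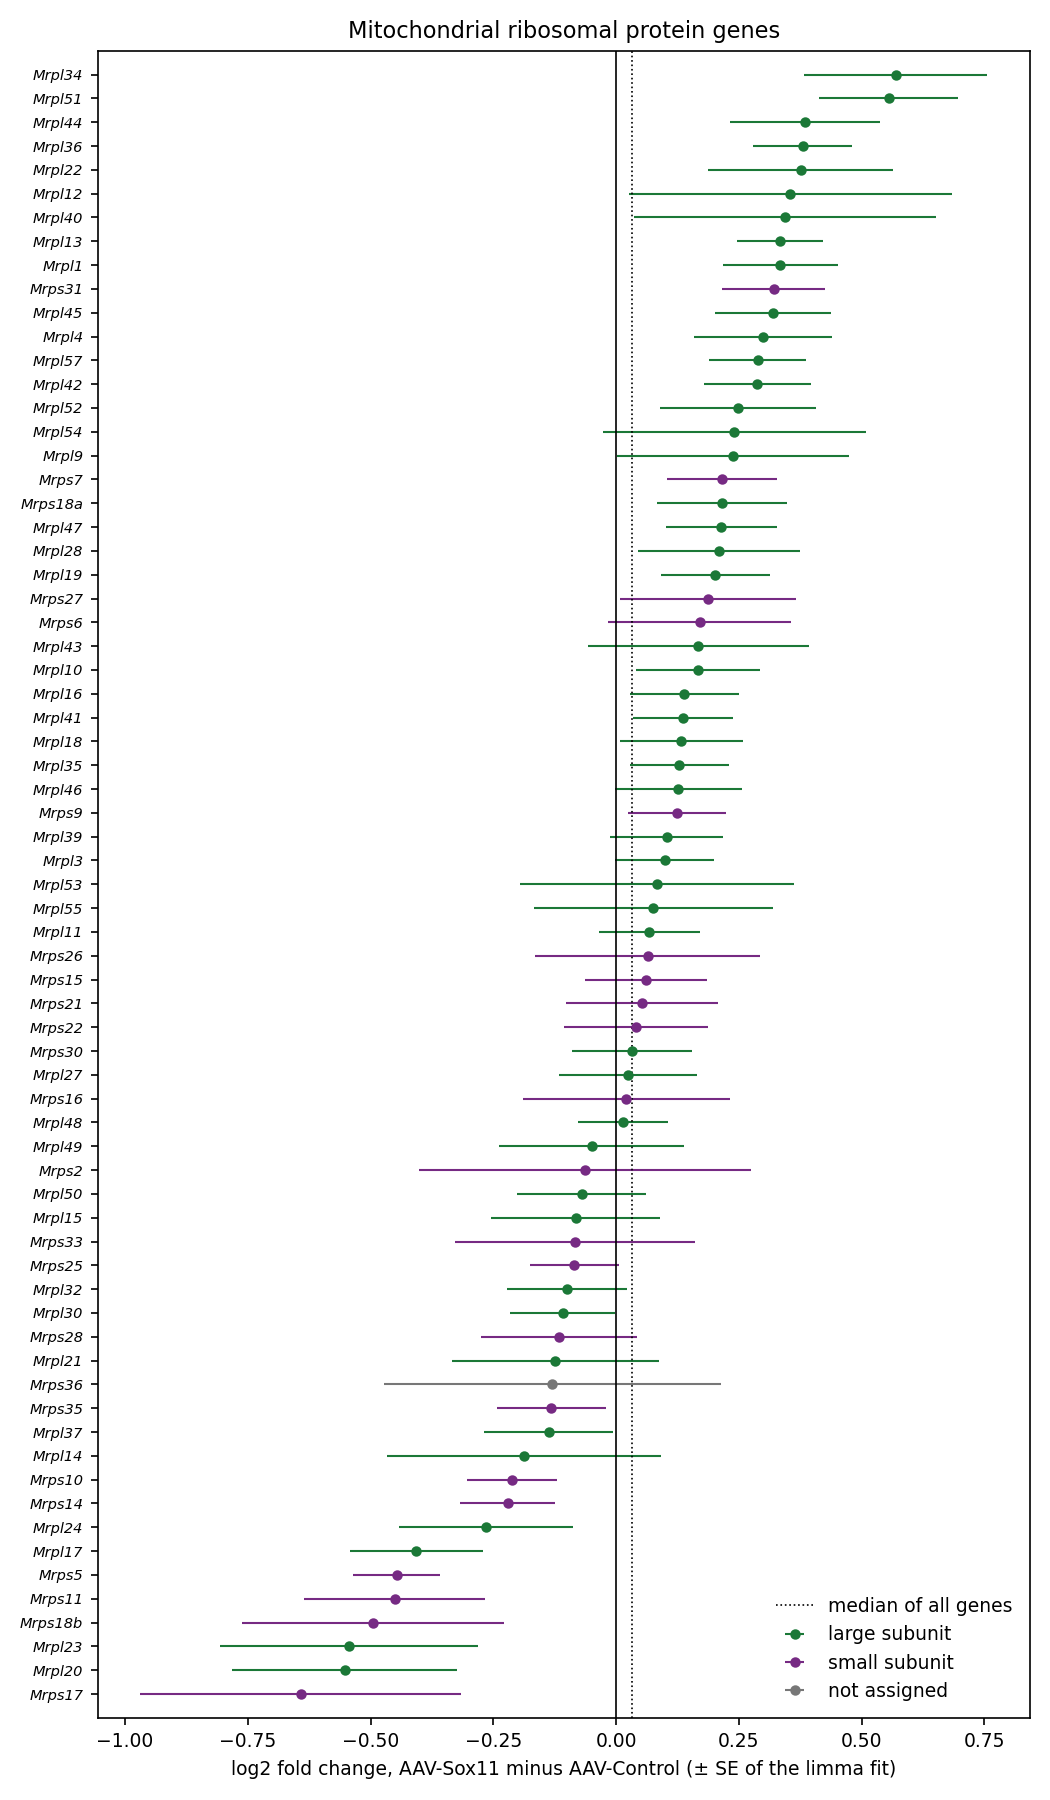
Log2 fold change (x axis, AAV-Sox11 minus AAV-Control) of the 69 members (y axis, sorted), with the standard error of the limma fit as bars, coloured by subunit; the dotted line is the median of all 15450 genes (0.032). Values run from -0.64 to 0.57, large-subunit genes fill most of the upper end, and 0 of the 69 passed an adjusted p of 0.05.

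All 3 AAV-Sox11 values lay above all 3 control values for 16 members (23.2%), against 16.2% of all genes, and below them for 7 members (10.1%), against 14.4% of all genes. Both shares are near those of all genes. Within pairs prepared on the same day, 25 members (36.2%) were higher with AAV-Sox11 in all 3 pairs, against 28.4% of all genes, and 10 (14.5%) were lower in all 3, against 24.3% of all genes. The median of the members' log2 differences within pairs was 0.02 on day A, 0.03 on day B and 0.21 on day C, beside 0.00, 0.04 and 0.03 for all genes. The module's median was thus furthest from that of all genes in the pair of day C. With a term for the sex index in the fit, the members' median was -0.001, beside 0.006 for all genes. With each library scaled to its own total, the members' median was 0.023, beside -0.032 for all genes. The members' median minus that of all genes was thus -0.007 with the sex index and 0.055 with this scaling, against 0.052 without either.

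Large- and small-subunit genes are set side by side here, with no test of the difference between them. The large-subunit median was 0.136, with 35 of 47 members positive, and the small-subunit median was -0.063, with 10 of 21 positive. Of the large-subunit genes, 14 (29.8%) lay above controls in every AAV-Sox11 library and 3 (6.38%) below. Of the small-subunit genes, 2 (9.52%) lay above and 4 (19.0%) below. Over all genes the shares were 16.2% above and 14.4% below. The small-subunit median turned positive when only genes with a mean value of at least 50 were kept (0.031), without AAV-Sox11 A (0.031) and without AAV-Control B (0.008), and in each of these cases the large-subunit median was higher (0.167, 0.147 and 0.184). Within pairs, the large-subunit median was 0.11, 0.11 and 0.26 on days A, B and C, and the small-subunit median -0.14, -0.11 and 0.00. With the sex index in the fit, the large-subunit median was 0.043 and the small-subunit median -0.182. Protein-coding rows only gave 0.167 and, for the small subunit, -0.003. The 51 members on 1 transcript row had a median of 0.136, and the 18 on several rows one of -0.097. The part of row number in the subunit difference was not tested.

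All 69 members together summed to 17262, 18505 and 19019 in AAV-Sox11 libraries A, B and C, against 17453, 18235 and 17041 in AAV-Control libraries. These sums overlapped, and they made up 0.155, 0.159 and 0.165% of the total with AAV-Sox11 and 0.157, 0.164 and 0.160% in controls. Large-subunit genes summed to 11997, 13053 and 13469 with AAV-Sox11, against 11776, 12468 and 11415 in controls. The groups overlapped, since AAV-Sox11 A lay below AAV-Control B. Small-subunit genes summed to 5251, 5430.1 and 5519 with AAV-Sox11, against 5648, 5743 and 5609 in controls, so every AAV-Sox11 library was below every control. This separation rests on Mrps5: without it the sums were 4681, 4836 and 4863 with AAV-Sox11, against 4814, 4944 and 4763 in controls, and they overlapped.

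The ratio of the large-subunit sum to the small-subunit sum, which no scaling of a library can alter, was 2.28, 2.40 and 2.44 with AAV-Sox11 and 2.08, 2.17 and 2.04 in controls. The means were 2.38 ± 0.0815 with AAV-Sox11 and 2.10 ± 0.0686 in controls (SD, n = 3 each), and the groups did not overlap. With 3 libraries each and a split taken up with earlier results known, no p-value is given for it. Mrps5, the small-subunit gene with the lowest p, carried part of the gap: without it the ratios were 2.56, 2.70 and 2.77 with AAV-Sox11 and 2.45, 2.52 and 2.40 in controls, still without overlap. On values per kb of transcript the ratios were 2.78, 2.92 and 2.93 with AAV-Sox11 and 2.66, 2.72 and 2.49 in controls. Cytosolic ribosomal protein genes gave 1.54, 1.65 and 1.69 with AAV-Sox11 and 1.69, 1.65 and 1.56 in controls for the ratio of 46 large- to 31 small-subunit genes, and there the groups overlapped fully. The bipolar marker sums and the sex index given above also lay apart between the groups. On the higher side, so did 4 of the 10 ganglion cell markers. On the lower side, 7 of 8 rod, all 5 cone and all 4 microglia and macrophage markers were negative, though their sums overlapped. The part of these differences in the mitochondrial ratio was not tested.

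**Figure D2:**
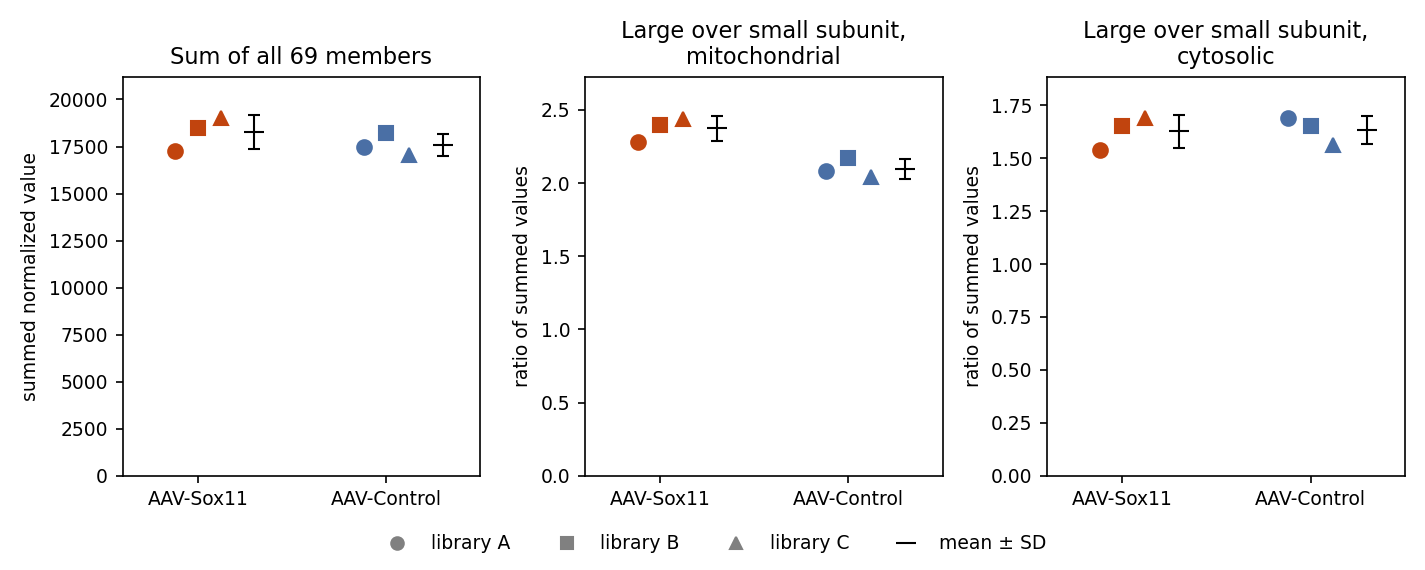
Summed normalised value of all 69 members (left), and the large-subunit sum over the small-subunit sum for mitochondrial (middle) and cytosolic (right) ribosomal protein genes (y axes), by group (x axis); symbols are libraries and black bars the mean ± SD of 3. The mitochondrial ratio was 2.28 to 2.44 in AAV-Sox11 libraries and 2.04 to 2.17 in AAV-Control libraries, while the other panels overlap.

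Among large-subunit genes with bacterial counterparts (27 members, median 0.133), Mrpl34 stood highest. It lies at chr8:71464959-71465747 and encodes a small core protein of the subunit. Its values were 73.0, 85.2 and 102 in AAV-Sox11 libraries A, B and C, against 51.5, 59.8 and 61.8 in controls. Every AAV-Sox11 library was above every control, with C highest, and the log2 fold change was 0.57 ± 0.19 (SE, limma adjusted p = 0.126). Mrpl36 (chr13:73328513-73332178), another small core protein, had 378, 362 and 367 with AAV-Sox11, against 292, 261 and 299 in controls. The groups were well apart, and the log2 fold change was 0.38 ± 0.10 (limma adjusted p = 0.0827). Mrpl36 overlaps Ndufs6 on the opposite strand, and without a known strand setting reads of the 2 genes cannot be told apart.

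Mrpl13 (chr15:55534094-55557748), a core protein of the large subunit, had 575, 565 and 543 with AAV-Sox11, against 422, 451 and 462 in controls. No value overlapped, and the log2 fold change was 0.33 ± 0.09 (limma adjusted p = 0.0798). Most of this total came from a transcript row of 6008 bases that keeps an intron. That row had 308.59, 311.54 and 321.77 with AAV-Sox11, against 254.37, 254.96 and 271.13 in controls. Mrpl13 also overlaps Mtbp on the opposite strand. Mrpl1, of the mobile stalk beside the tRNA exit site, had 185, 196 and 197 with AAV-Sox11, against 146, 162 and 151 in controls. Again the groups were apart, with a log2 fold change of 0.33 ± 0.12 (limma adjusted p = 0.141). Mrpl22, a protein that lines the peptide exit tunnel, had 68.8, 72.7 and 82.5 with AAV-Sox11, against 68.0, 49.0 and 56.0 in controls. Here AAV-Sox11 A and AAV-Control A almost touched, and the log2 fold change was 0.38 ± 0.19 (limma adjusted p = 0.268).

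Other core proteins of the large subunit were lower. Mrpl17 (chr7:105803206-105811099) had 381, 356 and 405 with AAV-Sox11, against 463, 455 and 609 in controls. All controls were higher, AAV-Control C by far, and the log2 fold change was -0.41 ± 0.14 (SE, limma adjusted p = 0.129). Nearly all of the total came from a protein-coding row of 7300 bases. The other row of Mrpl17, of 1028 bases, was low and overlapped between the groups. Mrpl17 also overlaps a pseudogene, Gm15645, on the opposite strand. Mrpl20 averaged 29.5 ± 2.11 with AAV-Sox11 and 44.4 ± 10.8 in controls (SD, n = 3 each), a log2 fold change of -0.55 (limma adjusted p = 0.193). Mrpl23, whose protein sits at the exit of the tunnel, had 9.38, 8.31 and 9.05 with AAV-Sox11, against 10.7, 14.7 and 15.4 in controls. It is the least abundant member, so its log2 fold change of -0.54 ± 0.26 (limma adjusted p = 0.251) rests on low values. Mrpl24, its neighbour at the exit, averaged 88.7 ± 12.1 with AAV-Sox11 and 107 ± 15.5 in controls (SD, n = 3 each), with overlapping values.

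The 19 large-subunit genes classed here as found only in mitochondrial ribosomes, Mrps18a among them, had a median of 0.167, and 16 of them were positive. Mrpl51 (chr6:125191801-125196269) led them with 189.7, 206 and 204 in AAV-Sox11 libraries, against 157, 131 and 121 in controls. Every AAV-Sox11 value was above every control, and the log2 fold change was 0.56 ± 0.14 (SE, limma adjusted p = 0.0749), the lowest adjusted p among members with a positive fold change. Mrpl44, which has a fold like that of ribonuclease III, had 159.5, 178 and 188 with AAV-Sox11, against 114, 150 and 139.9 in controls. The groups did not overlap, and the log2 fold change was 0.38 ± 0.15 (limma adjusted p = 0.18). Mrpl45, which attaches the ribosome to the inner membrane, averaged 303 ± 28.1 with AAV-Sox11 and 242 ± 16.7 in controls (SD, n = 3 each), without overlap and with a log2 fold change of 0.32 (limma adjusted p = 0.155).

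Mrpl40 shows how 1 library can set a fold change. Its values were 85.5, 55.0 and 38.2 with AAV-Sox11, against 41.7, 39.2 and 53.1 in controls. AAV-Sox11 A was high, AAV-Sox11 C was below all controls, and the log2 fold change was 0.34 ± 0.31 (limma adjusted p = 0.52). Mrpl48 averaged 593 ± 18.8 with AAV-Sox11 and 588 ± 45.4 in controls, Mrpl37 390.4 ± 25.7 and, in controls, 432 ± 62.4, and Mrpl49 667 ± 130 and, in controls, 689 ± 136 (SD, n = 3 each). These 3 overlapped between the groups. Mrpl53 was low in all libraries, at 15.1 to 16.7 with AAV-Sox11 and 10.7 to 18.6 in controls.

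**Figure D3:**
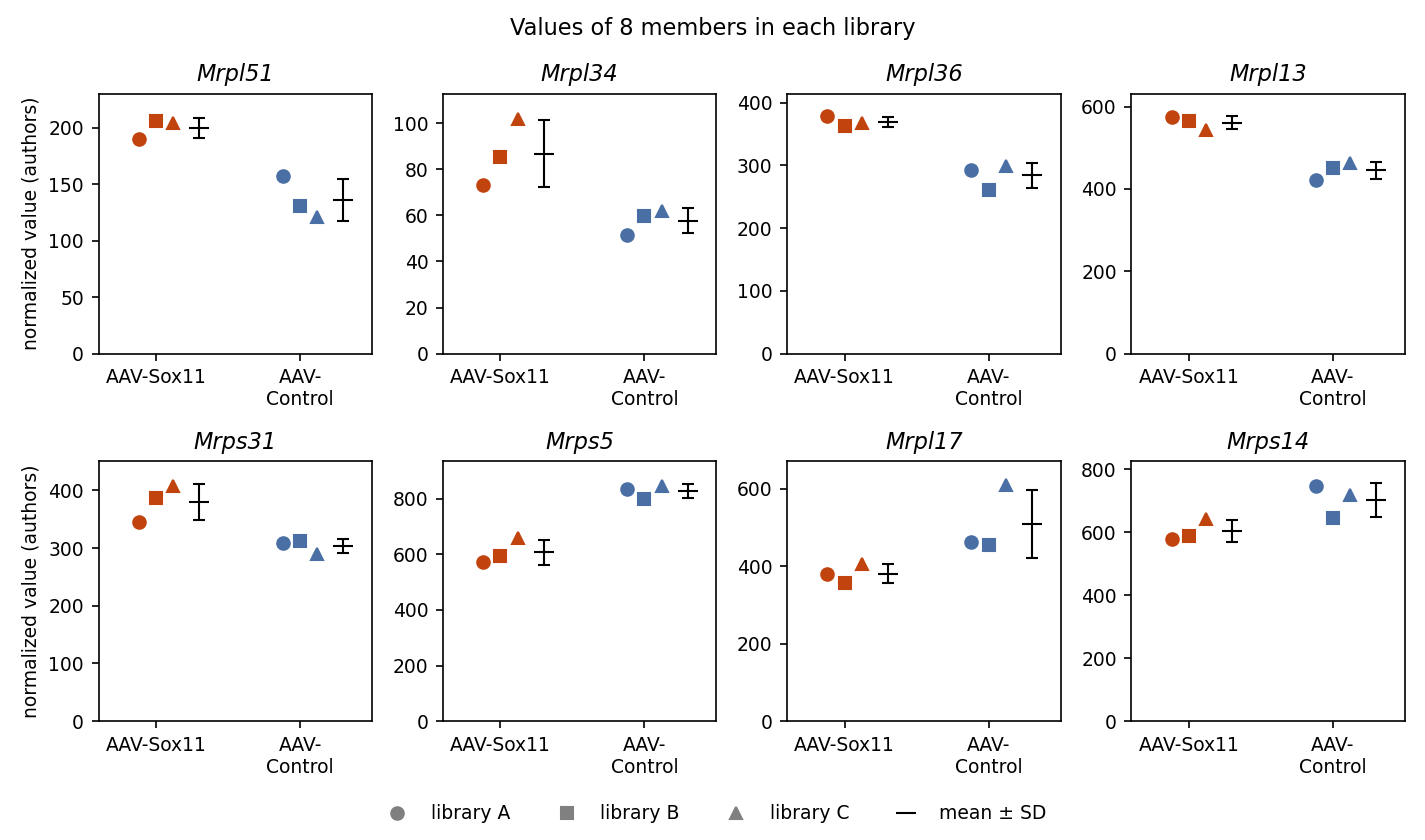
Normalised values (y axis, the authors' scale) of 8 members in each library (x axis, AAV-Sox11 left, AAV-Control right), with symbols for the letter of the library and black bars for the mean ± SD of 3. Mrpl51, Mrpl34, Mrpl36, Mrpl13 and Mrps31 lie above controls in every AAV-Sox11 library, and Mrps5, Mrpl17 and Mrps14 below, with 642 for the highest AAV-Sox11 library and 643 for the lowest control in Mrps14.

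The stalk, where translation factors dock, gave no clear difference. Mrpl12, the repeated stalk protein, had 67.8, 95.5 and 135 with AAV-Sox11, against 49.5, 95.1 and 87.8 in controls. In both groups library A was lowest, the ranges overlapped widely, and the log2 fold change was 0.36 ± 0.33 (SE, limma adjusted p = 0.538). Mrpl10, the anchor of Mrpl12, averaged 401 ± 59.3 with AAV-Sox11 and 355 ± 9.38 in controls (SD, n = 3 each). Mrpl11, at the base of the stalk, had 298, 312 and 318 with AAV-Sox11, against 274, 312 and 300.1 in controls. Mrpl3, close to the peptidyl transferase centre, averaged 267 ± 4.92 with AAV-Sox11 and 249.8 ± 11.4 in controls, without overlap but with a log2 fold change of 0.10 (limma adjusted p = 0.576). Of the 2 large-subunit genes with small-subunit names, Mrps30 averaged 476 ± 58.8 with AAV-Sox11 and 464 ± 36.3 in controls, and Mrps18a 197 ± 23.6 and, in controls, 169 ± 4.8 (SD, n = 3 each). Both overlapped between the groups.

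In the small subunit, Mrps5 had the lowest p of all members. Its protein lies by the channel through which mRNA enters and bears on the accuracy of decoding, and the gene lies at chr2:127587222-127606829. Values were 570.3, 594 and 657 with AAV-Sox11, against 835, 799 and 846 in controls. The groups were far apart, with a log2 fold change of -0.45 ± 0.09 (SE, limma adjusted p = 0.0514). This standard error rests on values from which part of the spread between AAV-Sox11 libraries had been taken out. The gene passed with the preparation day as a replicate block (limma adjusted p = 0.0493) and with library-total scaling (limma adjusted p = 0.0328). It also passed with median-of-ratios scaling, a mean of at least 50 and robust variance. Mrps5 missed the threshold in the main fit and in every fit that left out a library, so its call rests on the setting. Within pairs its log2 difference was -0.55, -0.43 and -0.37 on days A, B and C.

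Mrps14, a core protein of the head of the subunit, had 577, 587 and 642 with AAV-Sox11, against 745, 643 and 718 in controls. The groups only just failed to overlap, and the log2 fold change was -0.22 ± 0.10 (SE, limma adjusted p = 0.209). Mrps11, a core protein of the platform, had 32.3, 31.2 and 32.2 with AAV-Sox11, against 39.8, 46.1 and 46.3 in controls. All controls were higher, and the log2 fold change was -0.45 ± 0.18 (limma adjusted p = 0.186). Mrps11 overlaps Mrpl46, a large-subunit member on the opposite strand, and their RefSeq starts lie 42 bases apart. Mrpl46 averaged 142 ± 7.49 with AAV-Sox11 and 130.2 ± 9.21 in controls (SD, n = 3 each), so the means of the 2 neighbours lay on opposite sides, with overlapping values in Mrpl46.

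Mrps17, a core protein of the small subunit, had the lowest fold change, with an average of 59.0 ± 27.7 with AAV-Sox11 and 86.8 ± 12.4 in controls (SD, n = 3 each). Its AAV-Sox11 values were 35.5 in A, 51.9 in B and 89.5 in C, and its lowest control, B, had 75.5. AAV-Sox11 A and B were low, AAV-Sox11 C was within the controls, and the log2 fold change was -0.64 ± 0.33 (SE, limma adjusted p = 0.274), or -0.33 without AAV-Sox11 A. Mrps18b, classed here with the proteins of mitochondrial ribosomes only, had 13.6, 13.5 and 16.1 with AAV-Sox11, against 26.2, 15.7 and 21.2 in controls. AAV-Sox11 C lay above AAV-Control B, and the log2 fold change was -0.50 ± 0.27 (limma adjusted p = 0.296).

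On the higher side, Mrps31, found only in mitochondrial ribosomes, had 346, 386 and 408 with AAV-Sox11, against 309, 312 and 290.4 in controls. No value overlapped, and the log2 fold change was 0.32 ± 0.11 (SE, limma adjusted p = 0.125). Mrps7, a core protein near the tRNA exit site, averaged 288 ± 23.2 with AAV-Sox11 and 248 ± 13.5 in controls (SD, n = 3 each), a log2 fold change of 0.22 (limma adjusted p = 0.282). It counts among the members without overlap by less than 1 unit, since its lowest AAV-Sox11 library and its highest control were equal to 3 digits, at 263. Mrps9, one of the most abundant members, averaged 693 ± 27.1 with AAV-Sox11 and 638 ± 62.3 in controls, and Mrps22, a protein of mitochondrial ribosomes only, 359 ± 4.48 and, in controls, 353 ± 64.5 (SD, n = 3 each). Mrps2 and Mrps36, both low, averaged 15.7 ± 3.89 and 21.8 ± 8.3 with AAV-Sox11, and 16.9 ± 6.63 and 23.3 ± 5.89 in controls.

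Transcript rows of different kinds moved apart within the module. GENCODE M21 types 70 of the members' rows as protein-coding and 26 as retained introns, which are transcripts that keep an intron and give no full protein. The median difference of mean log2(value + 1) was 0.125 for the protein-coding rows, 46 of them positive, and -0.188 for the retained-intron rows, 9 of them positive. All named genes showed the same order, with medians of 0.069 over 13426 protein-coding rows and -0.046 over 6008 retained-intron rows. Among 16 members with rows of both kinds (retained introns, decay targets and processed transcripts as the other kind), the protein-coding sum had the higher difference in 11 (68.8%), as it had in 67.4% of 3406 genes of the whole table. The order is thus one that the table shows as a whole.

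Single members went both ways. The protein-coding row of Mrpl3 had 98.0, 90.35 and 83.46 with AAV-Sox11, against 46.6, 58.84 and 64.65 in controls. These values did not overlap, whereas the sum of its other rows differed by -0.12 (log2), so the gene total hid the row. The protein-coding row of Mrps11 had 13.56, 13.51 and 18.1 with AAV-Sox11, against 15.53, 11.76 and 18.33 in controls. It overlapped fully, and the gene's lower total came from its retained-intron row, with 18.77, 17.66 and 14.08 with AAV-Sox11, against 24.27, 34.32 and 27.98 in controls. In 5 members the order was the other way round. The widest gap of all 16 was among these, in Mrps26, with a log2 difference of -0.05 for its protein-coding row and 0.81 for its retained-intron row, followed by Mrps18a with -0.31 and 0.45, Mrps25 with -0.13 and 0.28, and Mrps15 with -0.001 and 0.24. Mrps26 overlaps an annotated antisense gene, whose reads cannot be told apart from its own without a known strand setting. The fifth was Mrps5, where both kinds were negative, at -0.46 and -0.40. Rows other than protein-coding held 13.9, 12.6 and 11.9% of the members' summed values with AAV-Sox11 and 14.0, 13.8 and 14.7% in controls, and no protein-coding row was in use for Mrpl32, Mrpl53, Mrps10, Mrps18b and Mrps2.

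**Figure D4:**
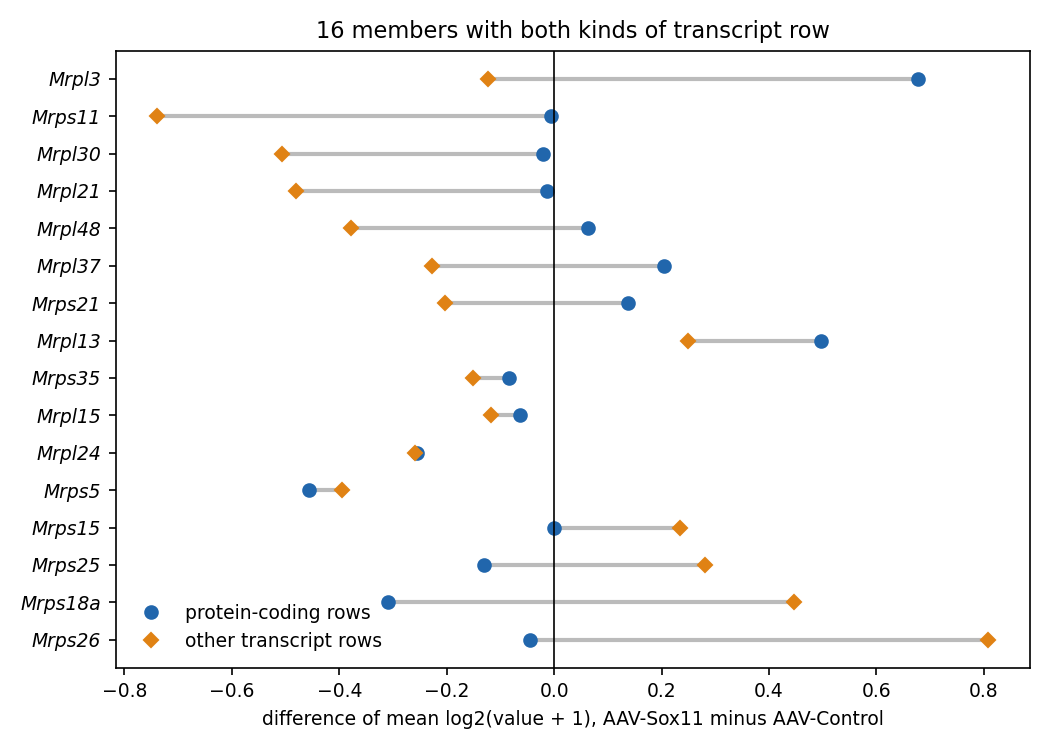
Difference of mean log2(value + 1), AAV-Sox11 minus AAV-Control (x axis), for the protein-coding rows (blue circles) and the other transcript rows (orange diamonds) of 16 members (y axis, sorted by the gap). The protein-coding value is the higher in 11 of 16, most in Mrpl3 (0.68 against -0.12), and the widest gap, in Mrps26, runs the other way (-0.05 against 0.81).

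In the authors' deposited table, which tests transcript rows, 1 of the 105 member rows had a false discovery rate under 0.05. It is the 4-exon protein-coding row of Mrpl13, with a log2 fold change of 0.77 and a false discovery rate of 0.033 in the authors' deposited table. Its values were 88.62, 87.23 and 73.41 with AAV-Sox11, against 46.6, 52.95 and 46.31 in controls. The 7-exon protein-coding row of Mrpl13 had a log2 fold change of 0.337 and a false discovery rate of 0.436 in the authors' deposited table. Over all rows of the authors' deposited table, 1.93% were under that rate as higher and 4.91% as lower, so 1 row in 105 is below both shares. At an unadjusted p under 0.05 the authors' deposited table holds 11 member rows, 6 of them positive, where 7.19% of all its rows were under that p as higher and 12.5% as lower.

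The members did not vary as 1 block across the 6 libraries. The correlation of a member's log2 values with the mean of all others, given as a description over 6 libraries that share their normalisation, had a median of 0.30 and ran from -0.69 for Mrps10 to 0.97 for Mrpl9. It was above 0.5 for 27 members and below 0 for 21. Mrpl9 had 309.6, 447 and 492 with AAV-Sox11, against 304, 471 and 289 in controls, so it was high in libraries B of both groups and in AAV-Sox11 C. Mrps10 had 359, 346 and 342 with AAV-Sox11, against 422, 386 and 404 in controls, below in every AAV-Sox11 library. The median SD of log2 values within a group was 0.121 with AAV-Sox11 and 0.139 in controls for the members, and 0.142 and, in controls, 0.228 for all genes. Part of the spread between AAV-Sox11 libraries was taken out before deposit, so the lower SD with AAV-Sox11 cannot be read as a trait of the group.

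Levels differed widely between members. Per kb of transcript, the mean normalised value over all libraries ran from 6.71 for Mrps2 to 542 for Mrpl42. Mrpl42, a protein of mitochondrial ribosomes only, had 388, 410.2 and 390.1 with AAV-Sox11, against 355, 330.5 and 290.4 in controls on the scale not divided by length. The groups were apart, and the log2 fold change was 0.29 ± 0.11 (SE, limma adjusted p = 0.164). Abundance went along with direction: the 59 members with a mean value of at least 50 had a median log2 fold change of 0.127, and the 10 below 50 one of -0.159. All genes did likewise, with 0.062 over 11723 genes at or above 50 and -0.14 over 3727 below. A further limit is position, since 36 members overlap another annotated gene and 33 do so on the opposite strand.

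Other genes of mitochondrial translation gave no calls either. Among 5 mitoribosomal proteins with other names (7 listed), 0 passed the adjusted threshold and the median log2 fold change was -0.063. Dap3, of the small subunit, averaged 1376 ± 118 with AAV-Sox11 and 1272 ± 66.8 in controls (log2 fold change 0.11), and Ict1, a peptide-releasing protein of the large subunit, 28.5 ± 2.11 and, in controls, 32.4 ± 10.6 (-0.13), as mean ± SD of 3. Of 16 mitochondrial translation factors, 0 passed, 8 were positive, and Taco1 (0.44), an activator of translation, and Mtfmt (0.37), which formylates the initiator tRNA, lay highest, with Tsfm (-0.50), an elongation factor, and Gfm2 (-0.26), a recycling factor, lowest. Of 19 genes for mitochondrial aminoacyl-tRNA synthesis, 0 passed, 10 were positive, and Fars2 (0.48) and Cars2 (0.28) lay highest, with Tars2 (-0.51) and Rars2 (-0.48) lowest. The names are those of the tRNA synthetases for phenylalanine, cysteine, threonine and arginine.

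Of 21 genes of mitoribosome assembly and ribosomal RNA modification, 0 passed and 9 were positive. Ddx28, an RNA helicase of large-subunit assembly, averaged 113 ± 9.85 with AAV-Sox11 and 69.1 ± 14.7 in controls (SD, n = 3 each), without overlap (log2 fold change 0.72 ± 0.20, limma adjusted p = 0.0915). It was followed by Rpusd4 (0.33), and Eral1 (-0.45), a GTPase of small-subunit assembly, and Mtg1 (-0.29) lay lowest. Of 18 genes of mitochondrial transcription and RNA processing, 0 passed and 10 were positive, from Mterf1b (-0.44) and Fastkd1 (-0.42) to Supv3l1 (0.27) and Fastkd3 (0.35). Transcripts of mitochondrial DNA were not analysed here. For scale, the 77 cytosolic ribosomal protein genes had a median of 0.148, with 58 positive and 0 called, and the 78 nuclear-encoded respiratory chain genes a median of 0.025, with 42 positive and 0 called.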

How the data were processed

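Polyadenylated RNA of sorted cells was sequenced in 3 AAV-Sox11 and 3 AAV-Control libraries. Per the submitters' processing notes, CASAVA 1.8.2, edgeR and build mm10 were used, and no aligner, read counter or strand setting is given in the sources used here. The normalised columns are a signal that the authors deposited, 1 factor per library (0.9649 to 1.0425) times a column of whole numbers. Those whole numbers, deposited by the authors without a unit, were treated as a score: of 5 directions in which 6 libraries can differ, 1 had an SD of 9.48e-05 (natural log), against 0.017 from read counting alone, so a component had been taken out before deposit. AAV-Sox11 B carries 57.7% of its squared weight, so part of the spread between AAV-Sox11 libraries is missing from the values. The authors' deposited log2 fold changes and p-values were copied and are named as theirs. Another 6 columns of per-library ratios were not used.

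Normalised values were summed over transcript rows of a gene symbol, and log2(value + 1) was tested with limma 3.58.1 in R 4.3.3 (trend, no covariate, two-sided, Benjamini-Hochberg over 15450 genes, threshold 0.05). Rows without a symbol (0.422 to 0.517% of a library) were left out. Transcript types and lengths came from GENCODE M21, which matched 97.8% of rows and all 105 member rows, and gene coordinates are on its build, GRCm38 (mm10). Promoters came from RefSeq (GRCm38.p6), with 62 members matched. Replicate letters mark a shared preparation day, per the labels, and deviations of same-letter libraries from their group means correlated at 0.00, 0.79 and 0.24 for A, B and C. Pools of animals are the replicates. Depth is known only as totals of adjusted values, so no counting intervals are given.

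The members and lists were chosen with earlier results of these data known. Members named with values were those past the threshold, the 8 highest and 8 lowest fold changes, the 5 most and 3 least abundant, and a list by role. Mrpl13, Mrps31, Mrpl42, Mrpl46, Mrpl9 and Mrps10 were added after their values were seen. Alternatives changed scaling, pseudocount (10), low-value filter (mean of 50), gene value, variance prior, block, covariates and libraries left out.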

Additional observations from a re-analysis of the deposited data

How the results depend on the processing

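Across 19 alternatives, no member was called higher with AAV-Sox11. Mrps5 alone was called lower, 1 member against 0, with median-of-ratios scaling, library-total scaling, genes with a mean of at least 50, robust variance and the replicate block (limma adjusted p = 0.0493), and 0 members were called lower in the others, leaving out any library included. Its adjusted p ran from 0.0328 to 0.303. The median log2 fold change of the members was 0.023 with library-total scaling (all genes -0.032) and -0.001 with the sex index as a covariate (all genes 0.006). With libraries left out, the members' median was 0.046 to 0.14. With the direction removed before deposit as a covariate, 0 of all genes were called either way, and likewise with the sex index or without any single AAV-Sox11 library, so counts of calls over all genes depend on these choices. The replicate block gave 323 higher and 414 lower genes in all, against 123 and 235 without it, and changed no other member's call. The large-over-small ratio, as the difference of group means, was 0.279. It was 0.278 with a mean of at least 50, 0.297 on the most abundant transcript row and 0.303 on protein-coding rows. Without Mrps5 it was 0.222, and per kb of transcript 0.251. Leaving out libraries alters it as well, and the ratios of single libraries are given above. Of 38 named members, 12 changed sign under some alternative. Mrpl48 was -0.011, -0.05 and -0.034 under median-of-ratios scaling, library-total scaling and the sex index. With library-total scaling Mrps22 was -0.023 and Mrps30 -0.032, and with the sex index Mrpl10 was -0.033, Mrps30 -0.217 and Mrpl9 -0.259. The most abundant transcript row gave -0.138 for Mrpl3. Protein-coding rows only, an alternative chosen after seeing the data, gave 0.205 for Mrpl37 and -0.31 for Mrps18a, since other rows were left out. With libraries left out, Mrpl48 ran from -0.036 to 0.093, Mrps22 from -0.122 to 0.144, Mrps30 from -0.114 to 0.178, Mrpl49 from -0.293 to 0.116, Mrps2 from -0.33 to 0.224, Mrps36 from -0.577 to 0.329, Mrpl53 from -0.174 to 0.225 and Mrpl9 from -0.024 to 0.459. Where no value above shows it, the cause was not tested. Low values limit the least abundant members most, with a median standard error of 0.267 for the 10 members of mean value under 50 and 0.13 for the other 59.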
